A study of Mus musculus with 6 samples.

Results

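The 34 genes described here are germline and meiosis genes of the mouse, taken by name from a list of genes known to be silenced by DNA methylation outside the germline. All 34 were found among the 22380 protein-coding genes of the annotation used. They hold 11 genes of the piRNA pathway and germ granules, 8 genes of the synaptonemal complex and the meiotic chromosome axis, 4 genes of meiotic recombination, 3 germ cell regulators, 6 other spermatogenic genes and 2 oocyte genes. Neither DNA methylation nor RNA was measured in the libraries used here, so the silencing itself was not checked.

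Chromatin immunoprecipitation followed by sequencing (ChIP-seq) measured the repressive marks H3K27me3, H3K9me2 and H3K9me3 in mouse embryonic stem cells (ESCs) of 2 genotypes. Each genotype gave 1 library of each mark, which makes 6 libraries. The first genotype, Dicer KO (labelled Dicer -/-), has lost Dicer, the RNase that makes small RNAs, through a constitutive CRISPR/Cas9 deletion. It carries loxP sites in Dnmt1, which encodes the maintenance DNA methyltransferase. In the second, Dicer KO/Dnmt1 cKO (labelled Dicer/Dnmt1 -/-), Dnmt1 was in addition deleted by an inducible Cre. Loss of Dicer was thus shared by every library, and no ESCs with Dicer were analysed here. The labels name E14 as the background strain, while the methods describe C57BL/6 ESCs, and the labels do not give the number of days after Dnmt1 deletion.

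Germline genes of this kind often have CpG-rich promoters that are methylated in the early embryo and stay methylated in somatic cells. H3K27me3 is laid down by the Polycomb complex PRC2, H3K9me2 mainly by G9a and GLP, and H3K9me3 by SETDB1 and the SUV39H enzymes. A variant Polycomb complex, PRC1.6, is known to bind many germline promoters through E-box (MGA and MAX) and E2F-type (E2F6) sites and is needed for their silencing in ESCs.

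Values were read counts in tiles of 2 kb. The libraries held 16834940 to 27162045 reads, with a median of 13 to 18 reads per tile and 6.10% to 6.89% of tiles without reads. A start window was the tile with the gene's outermost annotated transcription start and 1 tile on both sides, and the gene body was the rest of the gene. A level is the number of reads per tile divided by the mean over all tiles of that library, so that 1 is the genome mean. Levels are relative within a library, and a change of a mark over the whole genome could not be seen. A level also cannot tell a larger share of cells with the mark from more mark per cell. Since no mark was replicated within a genotype, no test was possible, and the 95% intervals given for log2 ratios cover counting error only. The marks could not check the Dnmt1 deletion: the start window of Dnmt1 itself held 6 H3K9me2 reads in Dicer KO and 27 in Dicer KO/Dnmt1 cKO, levels of 0.158 and 0.583.

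Promoter sequences are shown for the 4 members with most H3K27me3 in the start window (Tdrd6, Mei1, Tdrd1 and Brdt), the 3 with most H3K9me3 (Brdt, Tex101 and Mael) and the member with most H3K9me2 (Asz1). Zp3, which lay under the genome mean in all 3 marks, is shown for comparison. Each runs 5′ to 3′ in the direction of the gene, from 250 bases before the outermost start to the first 30 transcribed bases (NCBIM37). Capitals mark the E-box CACGTG and the E2F-type letters GCGGGA or TCCCGC.
Tdrd6 (chr17:43767219-43767498, - strand): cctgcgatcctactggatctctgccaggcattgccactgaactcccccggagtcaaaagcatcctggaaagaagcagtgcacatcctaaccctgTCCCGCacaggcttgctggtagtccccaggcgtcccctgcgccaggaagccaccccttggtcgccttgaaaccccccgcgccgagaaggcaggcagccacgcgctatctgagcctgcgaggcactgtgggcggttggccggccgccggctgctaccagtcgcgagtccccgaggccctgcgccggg
Mei1 (chr15:81900176-81900455, + strand): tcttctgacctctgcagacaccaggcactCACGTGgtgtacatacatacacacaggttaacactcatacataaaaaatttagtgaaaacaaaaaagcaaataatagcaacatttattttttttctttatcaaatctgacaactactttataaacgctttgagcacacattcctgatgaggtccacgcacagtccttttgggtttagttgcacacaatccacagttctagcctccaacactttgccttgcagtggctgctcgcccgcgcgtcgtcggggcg
Tdrd1 (chr19:56900449-56900728, + strand): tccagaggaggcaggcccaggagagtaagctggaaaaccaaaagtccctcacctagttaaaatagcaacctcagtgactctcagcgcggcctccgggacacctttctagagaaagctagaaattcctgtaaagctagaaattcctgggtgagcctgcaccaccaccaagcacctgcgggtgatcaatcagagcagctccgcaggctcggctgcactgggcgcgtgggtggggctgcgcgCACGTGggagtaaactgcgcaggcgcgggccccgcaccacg
Brdt (chr5:107759928-107760207, + strand): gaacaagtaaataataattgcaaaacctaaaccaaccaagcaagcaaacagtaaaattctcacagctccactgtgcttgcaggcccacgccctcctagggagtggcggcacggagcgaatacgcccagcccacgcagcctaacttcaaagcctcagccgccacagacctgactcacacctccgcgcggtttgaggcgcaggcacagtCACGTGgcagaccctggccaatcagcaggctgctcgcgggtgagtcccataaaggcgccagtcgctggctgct
Tex101 (chr7:25457040-25457319, - strand): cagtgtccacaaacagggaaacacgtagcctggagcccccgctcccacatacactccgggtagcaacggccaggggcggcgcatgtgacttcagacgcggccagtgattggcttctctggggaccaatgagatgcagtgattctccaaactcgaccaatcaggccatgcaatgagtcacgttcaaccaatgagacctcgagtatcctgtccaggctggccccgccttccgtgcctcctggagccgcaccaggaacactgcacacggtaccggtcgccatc
Mael (chr1:168168846-168169125, - strand): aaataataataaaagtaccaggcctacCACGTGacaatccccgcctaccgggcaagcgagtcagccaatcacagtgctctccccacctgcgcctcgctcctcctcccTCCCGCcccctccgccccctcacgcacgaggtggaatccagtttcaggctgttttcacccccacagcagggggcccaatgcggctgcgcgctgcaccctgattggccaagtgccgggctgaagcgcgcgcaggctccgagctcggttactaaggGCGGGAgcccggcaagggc
Asz1 (chr6:18059032-18059311, - strand): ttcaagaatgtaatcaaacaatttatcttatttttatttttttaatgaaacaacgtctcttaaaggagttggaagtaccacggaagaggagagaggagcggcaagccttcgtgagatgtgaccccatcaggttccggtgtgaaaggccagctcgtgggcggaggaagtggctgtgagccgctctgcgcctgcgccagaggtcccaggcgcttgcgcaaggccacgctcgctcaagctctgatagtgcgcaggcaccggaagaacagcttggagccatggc
Zp3 (chr5:136455719-136455998, + strand): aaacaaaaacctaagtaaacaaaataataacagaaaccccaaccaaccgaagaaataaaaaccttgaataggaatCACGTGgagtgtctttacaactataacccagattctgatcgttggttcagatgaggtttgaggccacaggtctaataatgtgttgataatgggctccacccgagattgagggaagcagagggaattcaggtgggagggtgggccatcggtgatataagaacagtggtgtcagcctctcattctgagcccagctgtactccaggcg
Tdrd1 had its E-box with the first letter 11 bases before the start, and Brdt 43 bases before it. In Mei1, Mael and Zp3 the E-box began 221, 223 and 175 bases before the start. Tdrd6 had no E-box but 1 E2F-type match, which began 156 bases before the start, and Mael had 2. No match of these letters was found in the sequences of Asz1 and Tex101. The sequences held 21 CpG dinucleotides in Tdrd6 and in Mael, 17 in Tex101, 16 in each of Tdrd1, Brdt and Asz1, 10 in Mei1 and 6 in Zp3.

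Searched on both strands from 250 bases before to 50 bases after the start, the E-box was present in 16 of the 34 members (47.1%), in 7.79% of 22355 protein-coding promoters and in 16.3% of 43 other germline genes. The E2F-type letters were present in 13 members (38.2%) and in 24.4% of protein-coding promoters. Ddx4, Mael, Sycp1, Sycp3, Hormad1, Slc25a31 and Zp3 held both, which makes 7 members (20.6%) beside 2.52% of protein-coding promoters. A match is a description of the letters and not of a bound site, and the members were chosen by name, so these shares are given without a test.

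Each relative to its own genome mean, H3K27me3 was the mark that stood highest at these genes. Summed over the 34 start windows it was at 1.76 times the genome mean in Dicer KO (3669 reads) and at 1.81 times in Dicer KO/Dnmt1 cKO (2967 reads), whereas H3K9me2 was at 0.947 and 1.04 and H3K9me3 at 1.01 and 1.11. The median member was at 1.52 and 1.71 in H3K27me3, 0.946 and 1.06 in H3K9me2, and 0.999 and 1.11 in H3K9me3. The median protein-coding gene was lower, with 0.717 and 0.728, 0.578 and 0.647, and 0.682 and 0.678. Summed over all protein-coding genes, start windows were at 1.30 and 1.20 in H3K27me3 and 0.869 and 0.881 in H3K9me2, under the members, but at 1.71 and 1.74 in H3K9me3, above them. These sums hold windows of extreme level, up to 14805 times the genome mean in H3K9me3 in Dicer KO, which no member has. A level of at least 1.5 in H3K27me3 was reached by 17 of 34 members in Dicer KO and by 19 in Dicer KO/Dnmt1 cKO, against 26.5% and 24.6% of all protein-coding genes. For H3K9me2 the same level was reached by 1 member (Asz1) and by 0, against 5.81% and 5.53% of all genes. For H3K9me3 it was reached by 0 members and by 3 (Brdt, Tex101 and Mael), against 3.42% and 3.43%.

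**Figure D1:**
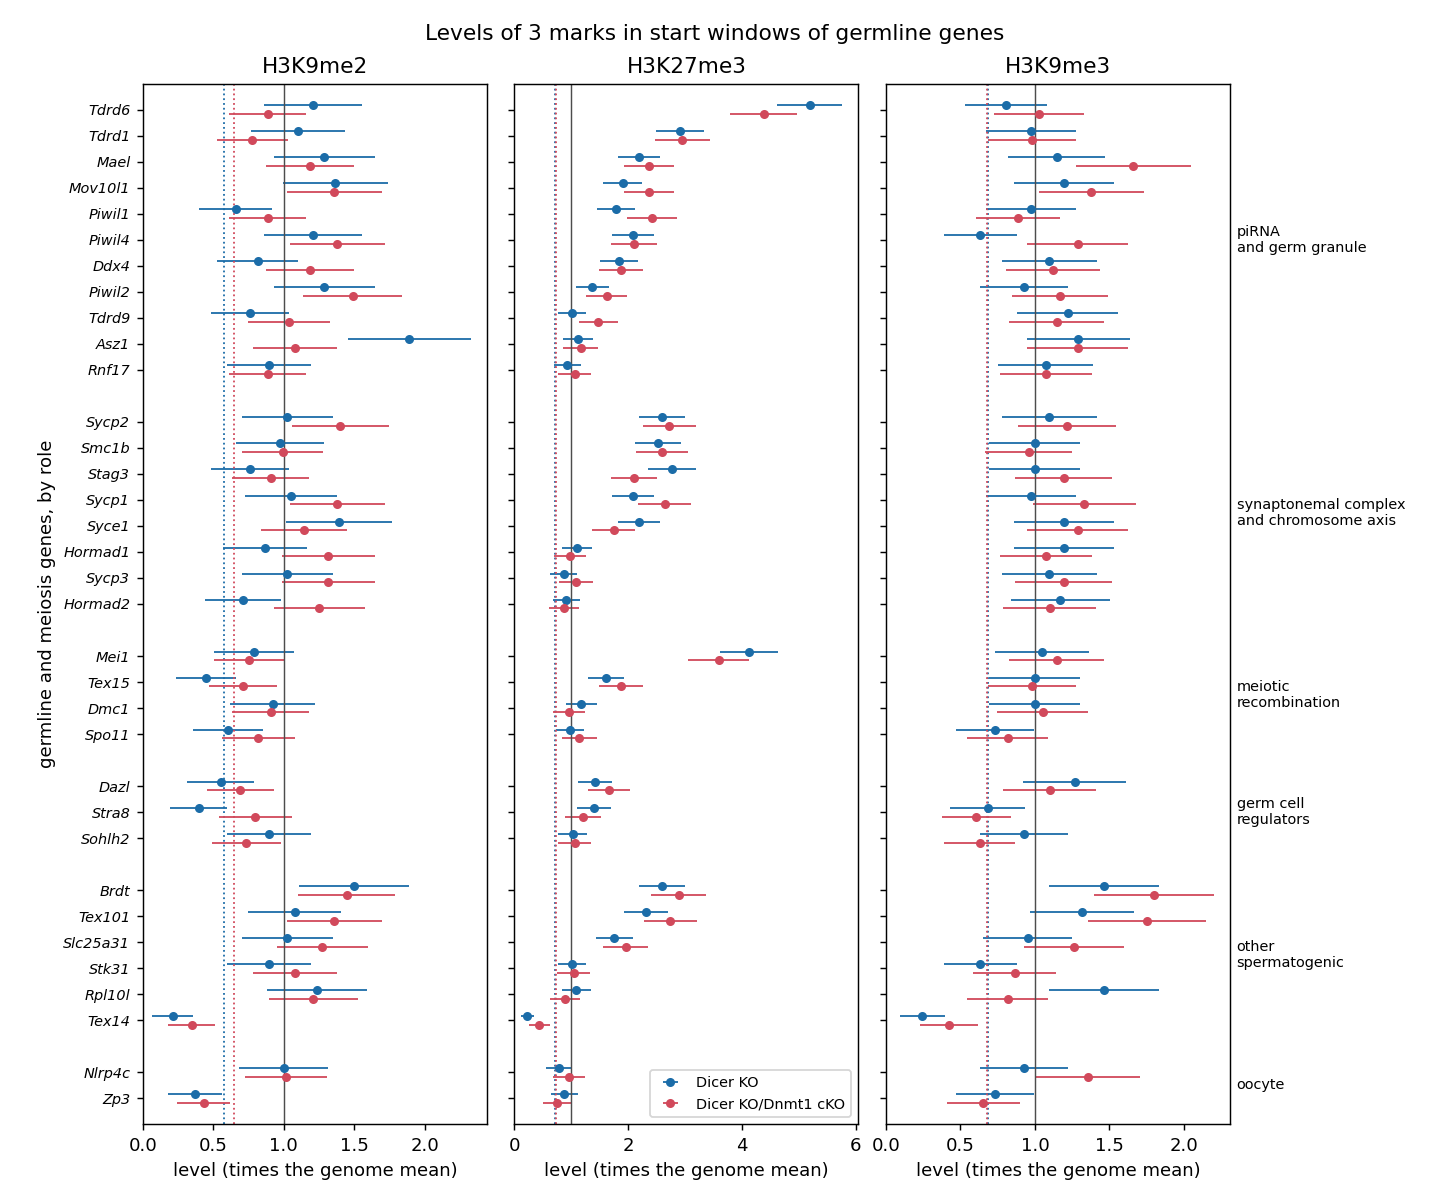
Level of H3K9me2, H3K27me3 and H3K9me3 (x axes, times the genome mean) in the start windows of the 34 genes (y axis, by role) in Dicer KO (blue) and Dicer KO/Dnmt1 cKO (red). Bars are 95% counting intervals, the solid line is the genome mean of 1 and dotted lines are the medians of all protein-coding genes; H3K27me3 reached 5.20 at Tdrd6, while Tex14 was lowest in all 3 marks.

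Among the piRNA and germ granule genes, whose products make and use the small RNAs that silence transposons in the germline, H3K27me3 summed to a level of 2.03 in Dicer KO and 2.16 in Dicer KO/Dnmt1 cKO. Tdrd6, a tudor protein of the chromatoid body, had 319 and 211 H3K27me3 reads in its start window, levels of 5.20 and 4.39. This was the highest value of the 34 genes and lay at the 97.7th percentile of all protein-coding genes. Tdrd1, a tudor protein that binds PIWI proteins, had 179 and 142 reads (2.92 and 2.95). Mael, needed for silencing of transposons in male germ cells, had 134 and 114 reads (2.18 and 2.37). Rnf17, another tudor gene, was the lowest of the 11 with levels of 0.929 and 1.06. The H3K9 methylation marks were ordered differently in this group. Asz1, a germ granule protein at the mitochondrial surface, had 72 and 50 H3K9me2 reads (1.89 and 1.08) and only 69 and 56 H3K27me3 reads (1.12 and 1.16). Piwil2 (1.29 and 1.49) and Mov10l1 (1.37 and 1.36) were also among the 4 highest members in H3K9me2.

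In the synaptonemal complex and chromosome axis, H3K27me3 was split between 5 genes with levels of at least 1.5 in both genotypes and 3 genes near the genome mean. The 5 were Sycp1, the transverse filament protein, Sycp2 of the lateral element, Syce1 of the central element, and the meiotic cohesin subunits Stag3 and Smc1b. Sycp2 had 159 and 131 reads (2.59 and 2.72) and Stag3 had 170 and 101 reads (2.77 and 2.10). Sycp3, the partner of Sycp2 in the lateral element, had only 53 and 52 reads (0.863 and 1.08). The HORMA domain genes Hormad1 and Hormad2 likewise lay between 0.873 and 1.11. The windows of Stag3 and Smc1b also hold the starts of the coding genes Gpc2 and Ribc2, and the part of each gene in these values cannot be told apart.

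The recombination genes ranged more widely. Mei1, which is needed to form meiotic double-strand breaks, had 253 and 173 H3K27me3 reads (4.12 and 3.60), next to Tdrd6. Spo11, which encodes the enzyme that makes the breaks, had 60 and 55 reads (0.977 and 1.14), and the recombinase gene Dmc1 had 72 and 46 (1.17 and 0.956). The germ cell regulators Dazl, Stra8 and Sohlh2 lay between 1.03 and 1.66. Of these regulators Dazl, an RNA-binding protein of early germ cells, was the highest in H3K9me3 with 52 and 47 reads (1.27 and 1.10).

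Brdt, a testis bromodomain protein that reads acetylated histones, was high in all 3 marks. Its start window had 57 and 67 H3K9me2 reads (1.498 and 1.45), 159 and 139 H3K27me3 reads (2.59 and 2.89) and 60 and 77 H3K9me3 reads (1.46 and 1.80). Tex101, a surface protein of male germ cells, was next to Brdt in H3K9me3 with 54 and 75 reads (1.32 and 1.75). At the other end stood Tex14, a gene of the intercellular bridges between germ cells, with 8 and 16 H3K9me2 reads, 14 and 21 H3K27me3 reads and 10 and 18 H3K9me3 reads. Its window also holds the start of Rad51c, a repair gene used in dividing cells. Zp3, which encodes a protein of the egg coat, was low as well, with H3K27me3 levels of 0.880 and 0.749, and Nlrp4c, the other oocyte gene, had 0.782 and 0.956.

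The order of the members was much the same in both genotypes for H3K27me3 (Spearman rho 0.919 over 34 genes) and less so for the marks with fewer reads, H3K9me2 (0.669) and H3K9me3 (0.490). Between marks, levels averaged over the genotypes went together most for H3K9me2 and H3K9me3 (rho 0.650) and little for H3K27me3 with either (0.283 and 0.253). These are descriptions over genes that share the same libraries. The points also share the depth and base composition of their windows.

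By median, the members with CpG-rich starts stood above other CpG-rich genes in all 3 marks. In the 1000 bases centred on the start, the median ratio of observed to expected CpG was 0.624 in the members and 0.549 in all protein-coding genes, and 19 members had a ratio of at least 0.6. Over those 19, median H3K27me3 was 1.84 in Dicer KO and 1.95 in Dicer KO/Dnmt1 cKO, beside 0.391 and 0.437 over the 10195 protein-coding genes with such a ratio. Median H3K9me2 was 1.03 and 1.08 beside 0.394 and 0.475, and median H3K9me3 was 1.05 and 1.12 beside 0.561 and 0.561. In H3K9me2 and H3K9me3 these CpG-rich members were thus near the level of CpG-poor genes: the 8950 protein-coding genes with a ratio under 0.4 had medians of 0.999 and 1.01 for H3K9me2 and 0.902 and 0.912 for H3K9me3. The limits of 0.4 and 0.6 were chosen after the values had been seen. Tex14 was the exception among the 19, with a ratio of 0.681 and a mean H3K27me3 level of 0.332.

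**Figure D2:**
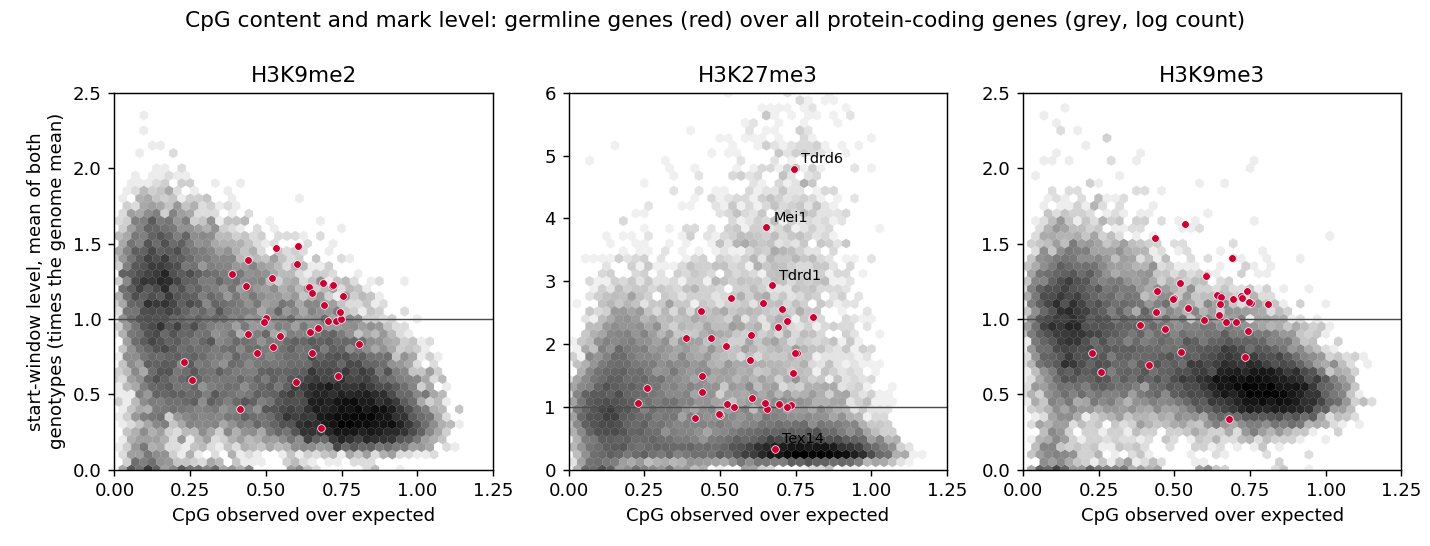
Ratio of observed to expected CpG in the 1000 bases around the start (x axes) against the start-window level of each mark, averaged over the genotypes (y axes, times the genome mean), for the 34 genes (red) over all protein-coding genes (grey, darker for more genes on a log scale). Genes above the axes, 36, 213 and 78 of them from left to right, are not drawn. By median the CpG-rich members lie above the CpG-rich genes in each mark, with Tex14 low in all 3 marks and Dazl nearer to those genes in H3K9me2.

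Over all 22355 protein-coding promoters the level fell with the CpG ratio, with rho of -0.25 in H3K27me3, -0.52 in H3K9me2 and -0.45 in H3K9me3. Over the 34 members rho was 0.22, 0.07 and 0.11. Median H3K27me3 was 1.78 and 1.91 in the 16 members with an E-box and 1.38 and 1.41 in the 18 without. All protein-coding genes were ordered the other way, with 0.554 and 0.582 in those with an E-box and 0.733 and 0.728 in those without. Mean levels of the members overlapped widely, from 0.814 to 3.86 with an E-box and from 0.332 to 4.79 without. The E2F-type letters gave a like split, with 1.76 and 1.87 in the 13 members that hold them and 1.42 and 1.66 in the other 21. No input library was used here, and the part of base composition in these levels was not tested.

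Around the start, H3K27me3 formed a peak over the start tile, which held 1415 and 1187 reads summed over the 34 genes. The level there was 2.03 in Dicer KO and 2.18 in Dicer KO/Dnmt1 cKO, while the tile on the upstream side was at 1.55 and 1.58 and the tile on the downstream side at 1.69 and 1.68. Of the 3 tiles of the window, the start tile held most H3K27me3 in 23 members, a share that was not counted over all genes. Within 20 kb, most members had their highest tile elsewhere. Mael had it 16 kb upstream (5.62 and 4.37) and Stag3 had it 8 kb upstream (4.35 and 3.18). The peak is thus one of the sum and not of each gene. H3K9me3 also stood highest in the start tile, at 1.17 and 1.38 (546 and 667 reads), with 0.847 and 0.949 upstream and 1.02 and 0.996 downstream. H3K9me2 had no such peak in Dicer KO, where the start tile was at 0.907 (391 reads), and reached 1.15 (602 reads) in Dicer KO/Dnmt1 cKO. The median member had a start tile at 1.78 and 1.965 in H3K27me3, 0.907 and 1.10 in H3K9me2, and 1.24 and 1.30 in H3K9me3. The median protein-coding gene had 0.635 and 0.624, 0.394 and 0.453, and 0.585 and 0.631. Summed over all protein-coding genes, with their extreme tiles, the start tile was at 1.46 and 1.39, 1.08 and 1.02, and 3.31 and 3.39, so that for H3K9me3 the sum of all genes exceeded that of the members.

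**Figure D3:**
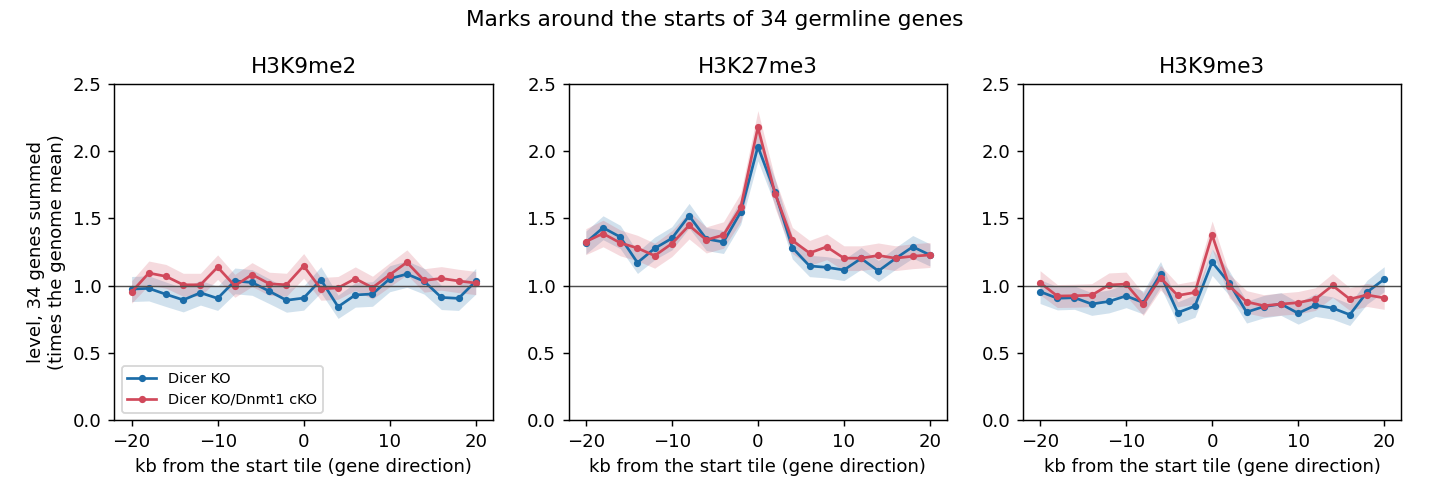
Level of each mark summed over the 34 genes (y axes, times the genome mean) in 2 kb tiles by distance from the start tile in the direction of the gene (x axes, kb) in Dicer KO (blue) and Dicer KO/Dnmt1 cKO (red), with 95% counting intervals shaded. H3K27me3 and H3K9me3 peak over the start tile in both genotypes, at 2.03 and 2.18 and at 1.17 and 1.38.

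After deletion of Dnmt1 in Dicer KO ESCs the summed marks at the start windows differed little. Summed H3K27me3 gave a log2 ratio of Dicer KO/Dnmt1 cKO over Dicer KO of 0.05 (interval -0.02 to 0.12). H3K9me2 went from 1225 to 1642 reads, a log2 ratio per library of 0.14 (0.03 to 0.24), and H3K9me3 from 1413 to 1610 reads, a log2 ratio of 0.13 (0.02 to 0.23). The medians over members with at least 50 reads, in the order H3K27me3, H3K9me2, H3K9me3, were 0.05, 0.23 and 0.11, beside -0.11, 0.06 and 0.01 over all protein-coding genes with as many reads. The H3K9me2 ratio of all genes also went down with level. Below a level of 1 the 17 members gave a summed ratio of 0.23 (0.06 to 0.40) and all genes 0.18. From 1 to 1.5 the 17 members gave 0.08 (-0.06 to 0.22) and all genes 0.02. Both values of all genes lie inside the intervals of the members. The 3 log2 ratios summed over all members did not differ from each other beyond counting error. The largest gap was 0.09 (-0.03 to 0.22), between H3K9me2 and H3K27me3. The start tile alone gave a ratio of 0.34 (0.15 to 0.52) in H3K9me2, 0.23 (0.07 to 0.39) in H3K9me3 and 0.10 (-0.01 to 0.21) in H3K27me3. Both H3K9me2 and H3K9me3 were higher in the start tile in Dicer KO/Dnmt1 cKO in 25 of 34 members (73.5%), beside 55.9% and 47.4% of all protein-coding genes. The H3K9me2 ratio was not particular to the start. The tile 10 kb upstream had 390 and 597 reads, a ratio of 0.33 (0.15 to 0.51), and the interval lay above 0 in 6 of the 21 tiles within 20 kb, the start tile included.

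Counted by gene, 0 of 33 members with at least 50 reads differed by 1.5-fold or more in H3K27me3, in either direction, against 3.33% of protein-coding genes that were higher and 9.4% that were lower in Dicer KO/Dnmt1 cKO. In H3K9me2, 4 of 32 were at least 1.5-fold higher (Stra8, Hormad2, Tex15 and Hormad1), against 8.44% of all genes, and 1 was lower (Asz1), against 2.87%. In H3K9me3, 1 of 33 was higher (Piwil4), against 6.08%, and 1 was lower (Rpl10l), against 5.05%. With so few genes, the H3K9me2 and H3K9me3 counts lie near the background shares. In H3K27me3, 0 of 33 lower lies under the share of 9.4%, and this gap was not tested. Tex14 had fewer than 50 reads in each mark and Zp3 in H3K9me2, and they were not counted.

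**Figure D4:**
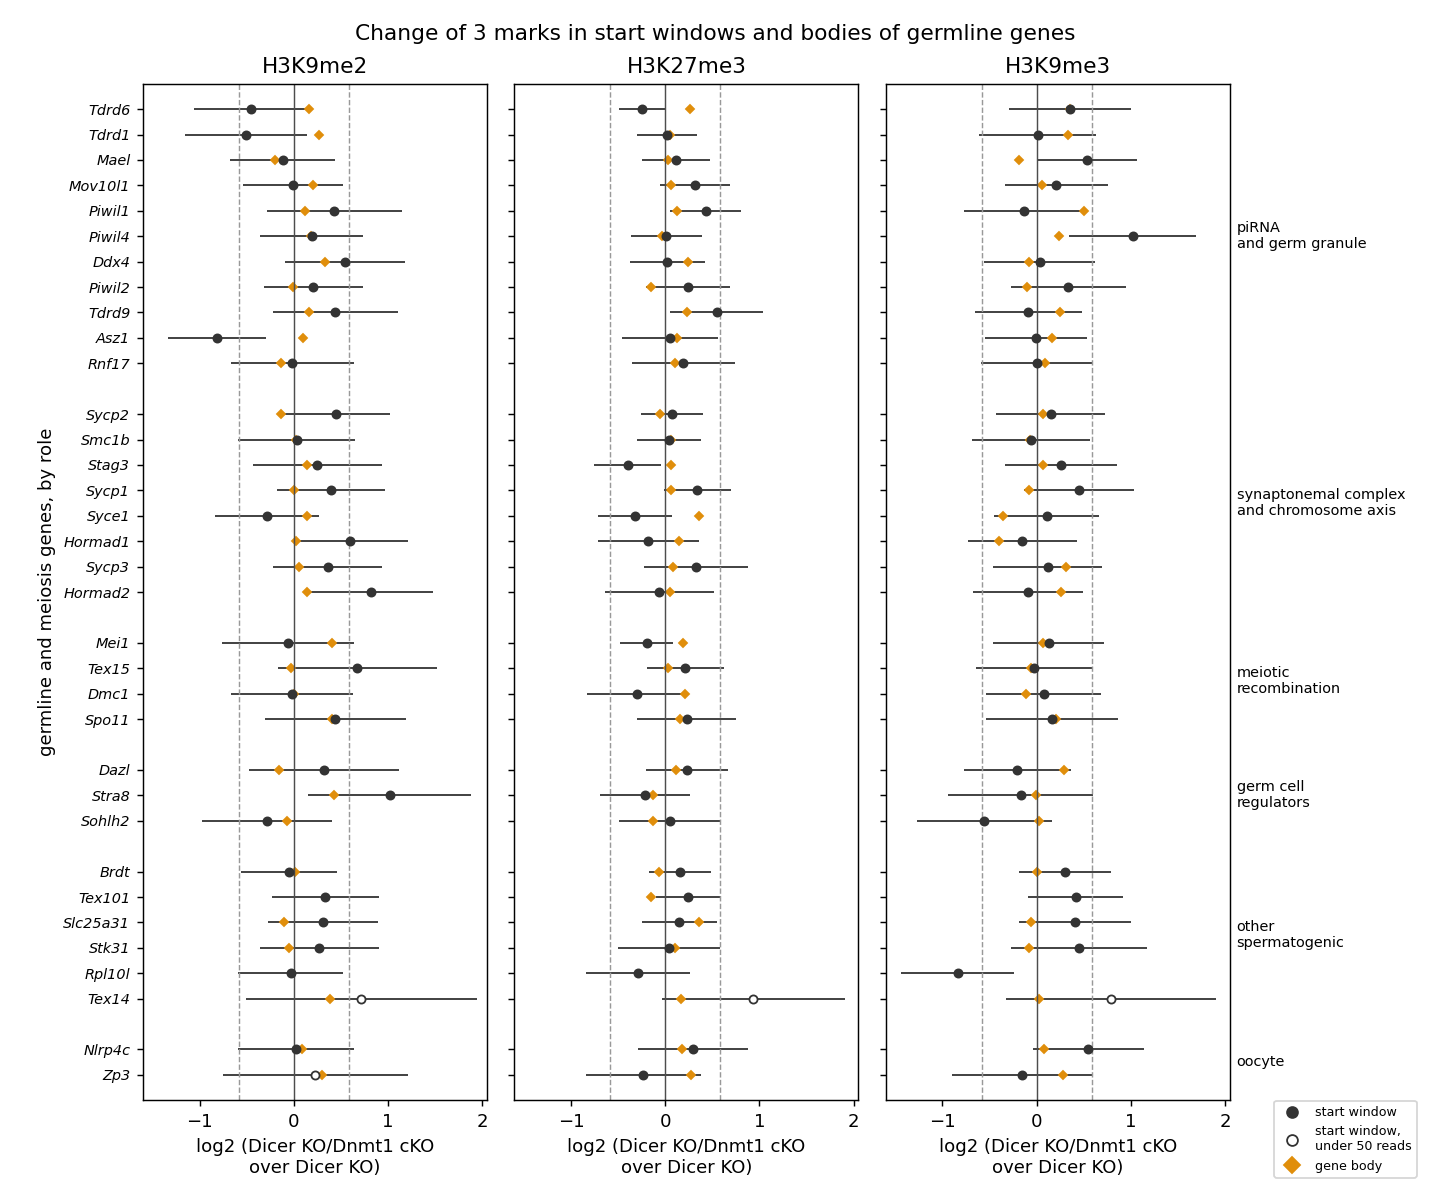
Log2 ratio of Dicer KO/Dnmt1 cKO over Dicer KO (x axes) for each of the 34 genes (y axis, by role) in start windows (circles, with 95% counting intervals, open under 50 reads) and in gene bodies with at least 50 reads (orange diamonds). Dashed lines mark 1.5-fold; no H3K27me3 circle with at least 50 reads passes them, and 4 H3K9me2 circles lie past the upper and 1 past the lower line.

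Within the synaptonemal and axis genes the H3K9me2 ratio of the summed start windows was 0.32 (0.10 to 0.53), from 297 to 450 reads. It was the highest of the 6 groups, but its interval overlapped that of every other group. The germ cell regulators gave 0.27 (-0.17 to 0.71). Further genes of meiotic chromosomes and recombination, not members, gave 0.09 (-0.11 to 0.29). Hormad2 had 27 and 58 reads, a log2 ratio of 0.82 (0.16 to 1.48), and Hormad1 had 33 and 61, 0.60 (-0.01 to 1.21). Both genes encode axis proteins that are removed from synapsed chromosomes. Sycp1 had 40 and 64 reads, Sycp2 had 39 and 65 and Sycp3 had 39 and 61. The H3K9me2 level was higher in Dicer KO/Dnmt1 cKO at 7 of the 8 genes, with Syce1 (53 and 53 reads) the exception. Of 11663 protein-coding genes with at least 50 reads, 6686 were higher, and the gap was not tested. In H3K27me3 the same group had a ratio of -0.03 (-0.17 to 0.11), with Stag3 at -0.40 (-0.75 to -0.04) and Sycp1 at 0.34 (-0.01 to 0.69).

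For the piRNA and germ granule genes the summed H3K9me2 ratio was -0.04 (-0.22 to 0.14) and that of H3K9me3 was 0.20 (0.02 to 0.38). The H3K9me3 reads went from 465 to 557. The member with the largest difference was Piwil4, the PIWI protein that guides DNA methylation in fetal male germ cells, with 26 and 55 reads and a ratio of 1.02 (0.35 to 1.69). Its outermost start lies 35663 bp from the start of its first listed coding transcript, so this window may not be the promoter in use. Without Piwil4 the group had 439 and 502 H3K9me3 reads and a ratio of 0.13 (-0.05 to 0.32), an interval that includes 0. Mael had 47 and 71 H3K9me3 reads, a ratio of 0.53 (0.00 to 1.07). Asz1 went the other way in H3K9me2, with 72 and 50 reads and a ratio of -0.81 (-1.33 to -0.29), and Tdrd1 and Tdrd6 gave -0.51 (-1.15 to 0.14) and -0.45 (-1.06 to 0.16). In H3K27me3, 10 of these 11 genes had a higher level in Dicer KO/Dnmt1 cKO, with Tdrd6 the exception, beside 5475 of 14214 protein-coding genes with at least 50 reads. The summed ratio of the 11 genes was 0.09 (-0.02 to 0.20). The largest ratios were those of Tdrd9, a tudor helicase (62 and 71 reads, 0.55, 0.06 to 1.04), and Piwil1, a PIWI protein of meiotic and later male germ cells (110 and 116 reads, 0.43, 0.05 to 0.80).

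Stra8, which retinoic acid switches on at the entry into meiosis, had the largest H3K9me2 ratio of the 34 genes, with 15 and 37 reads and 1.02 (0.15 to 1.88). Its levels, 0.394 and 0.798, stayed under the genome mean. Tex15, a gene needed for meiotic recombination and for piRNA-guided methylation, had 17 and 33 H3K9me2 reads, 0.67 (-0.17 to 1.52), also from a low level. Rpl10l, a retrocopy of the ribosomal gene Rpl10 that is used in spermatocytes, had 60 and 35 H3K9me3 reads, a ratio of -0.84 (-1.44 to -0.24). Reads that map equally well to copies of such a gene were removed by the filter on mapping quality. Sohlh2, a germ cell transcription factor, had 38 and 27 H3K9me3 reads, -0.55 (-1.27 to 0.16), and the oocyte gene Nlrp4c 38 and 58, 0.55 (-0.04 to 1.14).

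H3K27me3 of the members was also set beside that of genes in the same class of level, since the ratio over all protein-coding genes went down as the level went up. Below a level of 1 the 7 members gave a summed ratio of 0.09 (-0.13 to 0.31) and all protein-coding genes 0.10. From 1 to 1.5 the 9 members gave 0.06 (-0.11 to 0.23) and all genes -0.06, inside the interval of the members. From 1.5 to 2.5 the 11 members gave 0.09 (-0.02 to 0.21), while the 3227 genes of that class gave -0.13, outside it. The 14 other germline genes of that class gave -0.01 (-0.12 to 0.09), so -0.13 lay outside their interval as well. The 7 members at 2.5 and over (Tdrd6, Mei1, Tdrd1, Brdt, Sycp2, Smc1b and Tex101) gave -0.02 (-0.14 to 0.09), and the 2563 genes of that class -0.22. The 5 other germline genes there gave -0.24 (-0.36 to -0.11). That class is not matched, since its mean level was 3.15 in the members and 4.70 in all genes. In narrower classes, the 5 members from 2.5 to 3.5 (mean level 2.68) gave 0.10 (-0.04 to 0.25) and the 1261 genes there (mean level 2.94) -0.29. From 3.5 to 5, Tdrd6 and Mei1 together gave -0.22 (-0.41 to -0.04) and the 847 genes there -0.40, inside the interval of the pair. Within the members, Tdrd6 and Mei1, the highest genes, had ratios of -0.24 (-0.50 to 0.01) and -0.20 (-0.48 to 0.08), and the other 5 genes lay between 0.02 and 0.25. A list of 12 developmental regulators that are well-known PRC2 targets in ESCs had levels of 5.99 and 4.41, a ratio of -0.44 (-0.51 to -0.37). All classes of level were defined after the values had been seen.

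**Figure D5:**
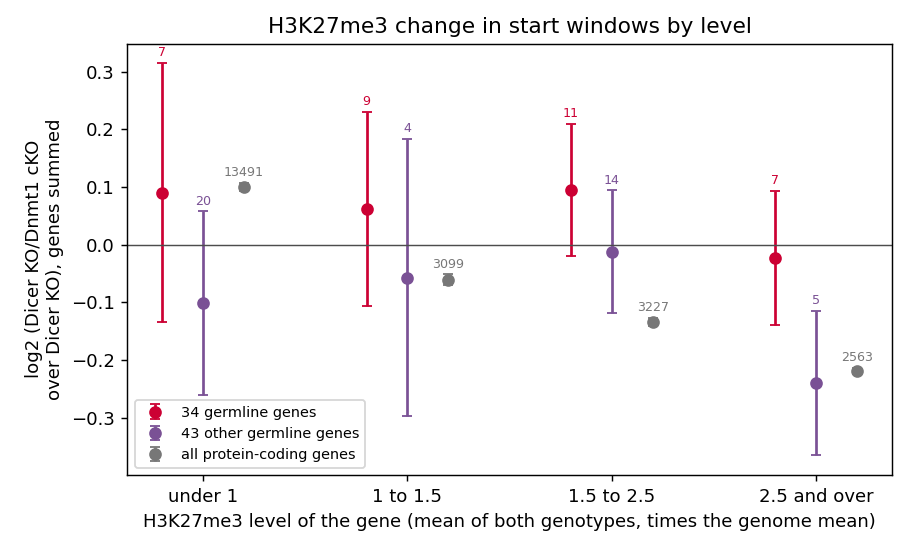
Log2 ratio of summed H3K27me3 reads in start windows, Dicer KO/Dnmt1 cKO over Dicer KO (y axis), for genes grouped by their H3K27me3 level (x axis, mean of both genotypes, times the genome mean), for the 34 germline genes (red), 43 other germline genes (purple) and all protein-coding genes (grey). Numbers count the genes and bars are 95% counting intervals; at levels of 2.5 and over, the 7 members are at -0.02 and the 2563 protein-coding genes, whose mean level in that class is higher, at -0.22.

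Gene bodies were close to the genome mean in each mark. Summed over 798 tiles, H3K9me2 was at 0.951 and 1.01, H3K27me3 at 1.07 and 1.14 and H3K9me3 at 0.875 and 0.911. The log2 ratios were 0.08 (0.04 to 0.12), 0.08 (0.05 to 0.12) and 0.06 (0.02 to 0.10), beside 0.04, 0.04 and 0.03 for the sums over all protein-coding genes. The median member body had 0.09, 0.10 and 0.06 and the median body of all protein-coding genes 0.11, 0.10 and 0.04, so that members were above all genes by sums but not by medians in H3K9me2. Start windows and bodies did not differ in their ratio beyond counting error, the gap (start minus body) being -0.04 (-0.12 to 0.04) in H3K27me3, 0.06 (-0.06 to 0.17) in H3K9me2 and 0.07 (-0.04 to 0.18) in H3K9me3. No member body with at least 50 reads differed by 1.5-fold in any mark. The background for being higher and lower was 5.98% and 1.29% of protein-coding genes in H3K27me3, 4.38% and 0.502% in H3K9me2, and 1.57% and 1.14% in H3K9me3. The body of Rpl10l lies wholly inside its window, and the body of Tex101 is 1 tile.

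In H3K9me2 the bodies with the largest ratios were those of Stra8 (74 and 121 reads, 0.42), Spo11 (55 and 89, 0.41) and Mei1 (264 and 425, 0.40). The lowest were those of Mael (306 and 325, -0.20), Dazl (65 and 71, -0.16) and Rnf17 (839 and 931, -0.13). Stra8 and Spo11 had a higher H3K9me2 level in Dicer KO/Dnmt1 cKO in the start window as well. In H3K27me3 Syce1 (124 and 125 reads, 0.36), Slc25a31, a testis ADP/ATP carrier (128 and 129, 0.36), and Zp3 (55 and 52, 0.27) were highest. Tex101 (54 and 38, -0.15), Piwil2 (681 and 482, -0.15) and Sohlh2 (270 and 194, -0.12) were lowest. Syce1 and Zp3 had start windows on the other side of 0, at -0.32 and -0.23. The helicase gene Tdrd9 was the member whose body interval lay above 0 in all 3 marks, with 573 and 783 H3K9me2 reads (0.17, 0.01 to 0.32), 1408 and 1296 H3K27me3 reads (0.23, 0.12 to 0.34) and 649 and 803 H3K9me3 reads (0.25, 0.10 to 0.40). For H3K9me3 the highest ratio was that of Piwil1 (135 and 200 reads, 0.51, 0.19 to 0.82), the lowest that of Hormad1 (125 and 99 reads, -0.40, -0.78 to -0.02). Next came Tdrd6 (0.35) and Tdrd1 (0.34) at the upper end, and Syce1 (-0.36) and Mael (-0.18) at the lower end.

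Of 46 further germline genes listed for comparison 43 were matched by symbol. Their summed start windows had H3K27me3 levels of 1.51 and 1.40, H3K9me2 levels of 0.746 and 0.815 and H3K9me3 levels of 0.862 and 0.927, each under that of the 34 members. The H3K27me3 ratio of these genes was -0.10 (-0.17 to -0.03), where the members had 0.05 (-0.02 to 0.12). Among the 43, Lhx8 had 521 and 304 H3K27me3 reads (8.49 and 6.32), levels above those of every member. The H3K9me2 and H3K9me3 ratios of the 43 were close to those of the members. They were 0.13 (0.02 to 0.23) and 0.10 (0.005 to 0.20), beside 0.14 and 0.13. An H3K27me3 level of at least 1.5 was reached by 17 and 19 of the 43, against 26.5% and 24.6% of all protein-coding genes. Of the 38 with at least 50 reads, 0 were at least 1.5-fold higher and 1 lower in Dicer KO/Dnmt1 cKO, against 3.33% and 9.4%. By role, 11 other piRNA and germ granule genes had H3K27me3 levels of 1.11 and 1.02, lower in Dicer KO/Dnmt1 cKO at 7 of them, where the 11 members of that role had 2.03 and 2.16 and were higher at 10. Of 14214 protein-coding genes with at least 50 reads, 8739 were lower and 5475 higher, so 7 of 11 lower is near the background. Other genes of meiotic chromosomes and recombination had H3K27me3 levels of 1.05 and 1.04, and further regulators and oocyte genes 2.17 and 1.97. For comparison, 10 genes of the pluripotent state had a median H3K27me3 level of 0.456 and 0.499 and a summed level of 0.766 and 0.732. Among them Esrrb, at 2.59 and 2.35, and Fgf4, at 1.48 and 1.52, stood above the genome mean. The median protein-coding gene was also low, at 0.717 and 0.728, so these levels cannot check cell identity. In H3K9me3 the 10 genes summed to 0.704 and 0.647, with Nanog at 2.46 and 1.17 (101 and 50 reads).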

How the data were processed

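Per the labels and the methods, the authors used Trim Galore for trimming and Bowtie2 for mapping to NCBIM37 (Ensembl v67), and reads with MAPQ under 20 were discarded; removal of duplicates is not stated. The deposited values are log2 ratios of observed to expected reads per tile from SeqMonk (methods 1 kb, file 2 kb). From each value the whole read count was recovered, with at most 1 tile per library over 0.1 reads from a whole number. Of 25 value columns 6 were used; 19, of other samples, were not used here. Python 3.11.15 with numpy 2.4.6 and pandas 2.3.3 summed reads per window (GENCODE starts on NCBIM37, a build equal to the file's on 22 of 22 chromosomes) and gave log2 ratios scaled to library totals with 95% Poisson intervals; the code was tested on simulated data. Genes were counted as higher or lower past 1.5-fold with at least 50 reads over both libraries. Per mark, the 4 highest and 2 lowest members by level were named. The 3 that rose and the 3 that fell most in windows and in bodies were named too. Some of them are given without the value that placed them there. Other genes were named after their values were seen. Members and lists were chosen with earlier results of these data known. With 1 library per mark and genotype, samples were grouped by the labels and no test was run. Alternatives changed the scaling, the window, the start, the read minimum, the fold and the summary.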

Additional observations from a re-analysis of the deposited data

How the results depend on the processing

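Of 36 alternative values of the summed changes 35 stayed within the counting interval of the reported value and none changed sign where that interval excluded 0. The other was the H3K9me2 change in the start tile alone, 0.34. Scaling to the median tile or to a trimmed mean shifted log2 ratios by at most 0.02 in size. Leaving out Stag3, Smc1b, Tex14 and Piwil4, an alternative chosen after seeing the data, gave 0.06 in H3K27me3, 0.13 in H3K9me2 and 0.10 in H3K9me3, whose interval (-0.01 to 0.21) then included 0. Levels moved with the window. In the start tile alone, the levels in Dicer KO and Dicer KO/Dnmt1 cKO were 2.03 and 2.18 for H3K27me3 and 1.17 and 1.38 for H3K9me3, and H3K9me2 in Dicer KO/Dnmt1 cKO was 1.15. With 2 tiles on both sides they were 1.58 and 1.63 for H3K27me3 and 0.928 and 1.02 for H3K9me3. The median member had H3K27me3 levels of 1.52 and 1.71, under the summed values. With at least 100 reads, 12 members were counted for H3K9me2 and 6 for H3K9me3, and 0 were 1.5-fold higher in either mark, with 0 lower in H3K9me3. At 2-fold, 1 was higher and 0 were lower in H3K9me2, and 0 were lower in H3K9me3. Without a minimum and with 1 read added, 1 was higher in H3K27me3 and 2 in H3K9me3. The causes were not tested, other than that fewer genes are counted under a higher minimum. No paired analysis was possible because a genotype was sampled with 1 library per mark, and for that reason no replicate could be left out. Depth limits single genes: in the start windows the counting interval lay above 0 at 2 members and below 0 at 1 in each mark, and at no other member with at least 50 reads. For all protein-coding genes with as many reads, it lay above and below 0 at 586 and 306 of 11663 in H3K9me2. The counts were 530 and 2682 of 14214 in H3K27me3, and 522 and 418 of 13794 in H3K9me3.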
